A study of Mus musculus with 24 samples.

Results

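The enzymes described here modify collagen and join its chains: the lysyl oxidases Lox, Loxl1, Loxl2, Loxl3 and Loxl4, the prolyl 4-hydroxylase alpha subunits P4ha1, P4ha2 and P4ha3, and the lysyl hydroxylases Plod1 and Plod2. They were taken by gene name on the array, as 10 of the 27401 genes measured, and 14 probes carry their names. They were measured in whole lung of mice on 24 single-colour microarrays, 24 days after irradiation. The 12 groups of 2 biological replicates were irradiated lung without drug (IR), IR+Ly, IR+Imatinib, IR+Su, IR+Ly+Imatinib and IR+Ly+Su, and the unirradiated groups Ly, Imatinib, Su, Ly+Su, Ly+Imatinib and untreated. Ly and Su are given as the labels write them; the labels state no strain, age, sex, radiation dose or drug dose, and all lungs were frozen before RNA was extracted. The study's title places the series in radiation-induced lung fibrosis under combined blockade of TGF-beta and PDGF signalling.

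Collagen chains are hydroxylated inside the endoplasmic reticulum before they leave the cell. Prolyl 4-hydroxylase, whose alpha subunits are paired with P4hb, hydroxylates prolines and thereby stabilises the triple helix, and it needs oxygen, iron, 2-oxoglutarate and ascorbate. Lysyl hydroxylases modify lysines that later serve as cross-link sites, and the copper-dependent lysyl oxidases act outside the cell, where they oxidise lysines of collagens and elastin so that cross-links form. In fibrotic tissue these cross-links are known to make the matrix stiff and resistant to breakdown.

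All values are log2 signals relative to the 75th percentile of the same array, called levels here. A level compares 1 probe between arrays and not with another probe. Of the 10 genes, 8 were well above background on all 24 arrays; Loxl4 was on 8 and P4ha3 on 5. A gene was tested if it was well above background on both arrays of at least 1 group, and 9 of the 10 were, as were 20409 genes in all. P4ha3, which on the array is named by accession NM_177161, was not tested: its levels ran from -7.82 to -4.97 on irradiated arrays and from -7.40 to -4.32 on unirradiated arrays, and arrays of a single group lay up to 2.92 apart. Tests were made with limma over all 24 arrays, p-values received Benjamini-Hochberg adjustment across these 20409 genes, and 0.05 was the threshold; SE is that of the fit, and n = 2 arrays a group. Whole lung was profiled, so that more cells of a type and more RNA per cell cannot be told apart.

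The arrays lay on 6 slides of 4, and each slide carried either irradiated or unirradiated lungs, so that irradiation cannot be told apart from slide. Ly against untreated and IR+Ly against IR were each compared within a slide; in the other comparisons between 2 groups a group effect cannot be told apart from its slide. The 6 lung epithelial markers, with Sftpc and Scgb1a1 among them, were well above background on every array. The signal at the 75th percentile was 2263 on the first IR array and between 629 and 1600 on the others, and that array stood at an extreme for several of the enzymes. On 3 arrays, the second of IR+Ly+Imatinib and both of IR+Ly+Su, 75.9% to 78.5% of spots were well above background, against 62.0% to 73.3% on the other arrays.

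The promoters of P4ha1 and P4ha2 are shown because these subunits moved together across the groups (described further on) and because prolyl hydroxylase genes are known targets of hypoxia signalling. RefSeq promoter sequences were matched for 5 of the 10 genes, from 250 bases before to 50 bases after the start of the gene in build GRCm38.p6. P4ha1 lies at chr10:59323046-59323345 and P4ha2 at chr11:54100674-54100973, both on the plus strand. Capitals mark ACGTG or GCGTG on either strand, the core letters of a hypoxia response element.
P4ha1: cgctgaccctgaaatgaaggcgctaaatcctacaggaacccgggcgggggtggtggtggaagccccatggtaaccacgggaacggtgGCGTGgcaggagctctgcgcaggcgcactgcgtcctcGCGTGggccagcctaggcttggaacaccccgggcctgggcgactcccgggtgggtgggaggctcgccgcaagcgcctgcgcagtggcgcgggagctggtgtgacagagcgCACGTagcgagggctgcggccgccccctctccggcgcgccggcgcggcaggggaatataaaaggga
P4ha2: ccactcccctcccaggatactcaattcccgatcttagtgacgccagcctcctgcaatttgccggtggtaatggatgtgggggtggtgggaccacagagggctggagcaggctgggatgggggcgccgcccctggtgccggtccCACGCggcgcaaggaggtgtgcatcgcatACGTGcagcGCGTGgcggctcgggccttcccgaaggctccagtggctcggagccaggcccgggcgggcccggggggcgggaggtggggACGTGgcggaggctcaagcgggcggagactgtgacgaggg
ACGTG was found once in the P4ha1 window and at 2 places in the P4ha2 window, and 19.6% of 32851 promoters of the same length held it. GCGTG was found at 2 places in each, and 32.4% of promoters held it. Of the other matched windows, that of Loxl4 held GCGTG at 1 place and that of Plod1 at 2. The P4ha3 window held neither GCGTG nor ACGTG. The heat shock letters GAANNTTC and the CCAAT box were searched on both strands and were found in neither window; 7.86% and 37.4% of promoters held them. A match in so short a window is a description of the sequence.

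The lysyl oxidases Lox, Loxl1 and Loxl3 were higher in irradiated lung. Averaged over the 6 drug arms, these 3 passed the test upward, P4ha1 passed it downward, and Loxl2, P4ha2, Plod1 and Plod2 did not pass, so that 4 of the 8 enzymes that were above background on every array were called, where 32.9% of all genes were (16.1% higher and 16.8% lower). The median difference was 0.39 over these 8 enzymes and 0.00 over all genes. Loxl4 is described apart, since it entered the test only through irradiated groups. Macrophage markers differed in the same comparison: 6 of 8 were higher and none lower, with a median of 0.62, and their part in the result was not tested.

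**Figure D1:**
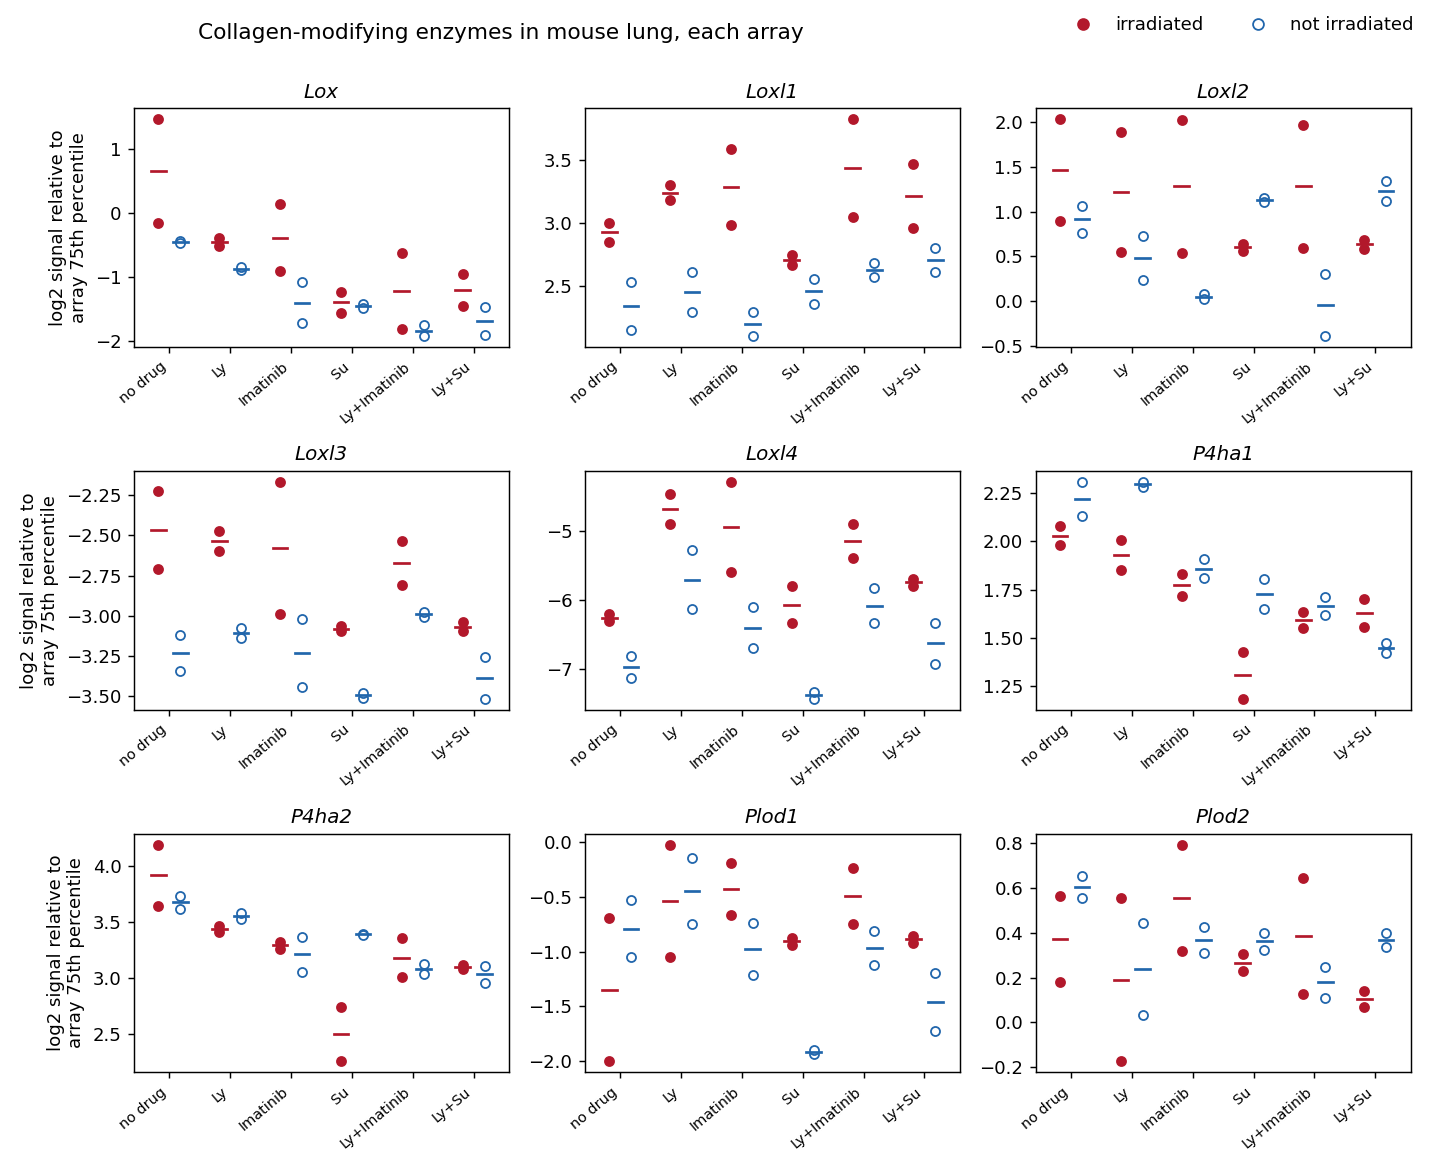
Level of each tested enzyme on each array (vertical axis, log2 signal relative to the array's 75th percentile) in the 6 drug arms (horizontal axis); points are arrays, irradiated filled and unirradiated open, and bars are group means (n = 2). Loxl1 and Loxl3 group means sit higher with irradiation in all 6 arms, and P4ha2 is lowest in the IR+Su group, at a mean of 2.50.

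Loxl1, an oxidase known for its part in elastic fibre upkeep, gave the clearest separation. Its lowest, median and highest levels were 2.66, 3.02 and 3.83 on the 12 irradiated arrays, against 2.10, 2.54 and 2.80 on the 12 unirradiated arrays. Of the 12 irradiated arrays 10 lay above every unirradiated array, and the exceptions were both IR+Su arrays, at 2.75 and 2.66. The averaged difference was 0.67 ± 0.10 (SE), a 1.59-fold higher level (limma, adjusted p = 0.000332), and all 6 arms differed upward, from 0.25 in the Su arm to 1.09 in the Imatinib arm. IR+Imatinib lungs, at 2.99 and 3.59, against Imatinib lungs, at 2.29 and 2.10, were the only arm whose Loxl1 difference passed by itself (adjusted p = 0.0329; 2.88% of all genes called). That call ended without Imatinib 1 (1.18, adjusted p = 0.0925), without Imatinib 2 (1.00, adjusted p = 0.205) and without IR+Imatinib 2 (0.79, adjusted p = 0.435).

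Lox is the founding member of the family and cross-links fibrillar collagen and elastin. Lox levels were -1.81, -0.77 and 1.46 (lowest, median and highest) on irradiated arrays, against -1.92, -1.44 and -0.45 on unirradiated arrays. The 2 sets overlap, and 4 irradiated arrays lay above all unirradiated ones. The averaged difference was 0.62 ± 0.19, or 1.53-fold (adjusted p = 0.0248), upward in 6 of 6 arms, from 0.05 in the Su arm to 1.11 without drug. The call ended with slide as a random block (adjusted p = 0.0831), with quantile normalization (0.55, adjusted p = 0.0506), and without Imatinib 2 (0.56, adjusted p = 0.0507), IR+Imatinib 2 (0.53, adjusted p = 0.0527) or IR+Ly+Su 1 (0.57, adjusted p = 0.0512).

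Loxl3, another extracellular lysyl oxidase, was at -3.09, -2.76 and -2.17 (lowest, median and highest) on irradiated arrays, against -3.51, -3.19 and -2.97 on unirradiated arrays. On 7 irradiated arrays its level was above all unirradiated arrays. Loxl3 was higher by 0.51 ± 0.09, or 1.42-fold (adjusted p = 0.00109), with 6 of 6 arms upward between 0.32 and 0.77, and it was the only enzyme called in IR lungs, at -2.22 and -2.71, against untreated lungs, at -3.34 and -3.12 (0.77 ± 0.23, adjusted p = 0.0402; 14.2% of all genes called). The IR call ended without IR 1 (0.52, adjusted p = 0.362), untreated 1 (0.65, adjusted p = 0.149) or untreated 2 (0.88, adjusted p = 0.105), and with background taken from the negative control spots (0.36, adjusted p = 0.125). With normexp background correction the direction of Loxl3 turned, to -0.59 in IR against untreated lung and to -0.030 averaged over arms (adjusted p = 0.303 and 0.918). Without IR 2 instead, 4 enzymes passed against untreated lung, with Lox at 1.92 (adjusted p = 0.00493) and Plod1 at -1.21 (adjusted p = 0.0302) among them.

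Loxl4 was close to the detection limit. It was well above background on 7 of 12 irradiated arrays (both of IR+Ly, IR+Ly+Imatinib and IR+Ly+Su, and 1 of IR+Imatinib) and on 1 of 12 unirradiated arrays, a Ly array. Its levels were -6.34, -5.64 and -4.29 on irradiated arrays (lowest, median and highest), against -7.43, -6.52 and -5.28 on unirradiated arrays. It passed the filter only through irradiated groups, and most of these levels lie below background, so that its averaged difference over arms is not given as a result. In IR+Imatinib lungs, with a mean of -4.94, 1 of 2 arrays was above background for Loxl4. In Imatinib lungs, with a mean of -6.40, none was. No fold is given, and the difference did not pass (adjusted p = 0.0661). The 3 arrays with the highest share of spots above background are among those that detected Loxl4. Their lowest level marked well above background was -6.84 to -6.50, against -5.63 to -4.89 on the other arrays. Loxl4 in IR+Ly+Su lungs, at -5.80 and -5.69, lay below that limit of every other array. The part of this in the detection was not tested. In IR+Su against Su lungs the test passed for Loxl4 (adjusted p = 0.0478), but all 4 arrays were not well above background and no fold is given.

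Loxl2, which oxidises collagen and is also known to act on the basement membrane collagen IV, was represented by its brighter probe, made for XM_985144. Loxl2 levels were 0.54, 0.66 and 2.03 on irradiated arrays and -0.39, 0.75 and 1.35 on unirradiated arrays (lowest, median and highest), and 4 irradiated arrays lay above all unirradiated ones. Within IR, IR+Ly, IR+Imatinib and IR+Ly+Imatinib the replicates lay far apart, as in IR lungs at 2.03 and 0.90 and in IR+Imatinib lungs at 0.54 and 2.03. Its averaged difference was 0.45 ± 0.22 and did not pass (adjusted p = 0.129). The second Loxl2 probe, made for NM_033325, gave 0.78 ± 0.15, which did pass when every probe was tested (adjusted p = 0.00207, against 0.136 for the brighter probe), so that the 2 probes disagree on the call. They also differed in direction in the Su and Ly+Su arms. The second probe gave 0.70 and 0.49 there, against -0.53 and -0.60 for the brighter probe, and none of these passed. In the other arms both probes were upward.

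**Figure D2:**
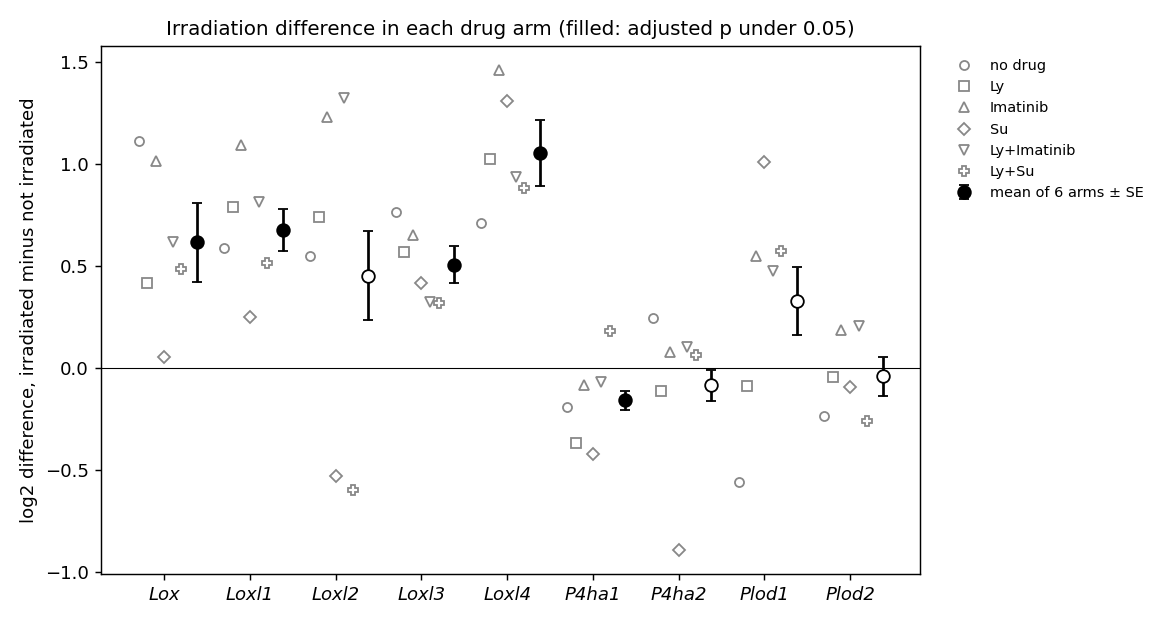
Difference between irradiated and unirradiated lung (vertical axis, log2) for the 9 tested enzymes (horizontal axis); open grey symbols are the 6 drug arms and the black point with its bar is their mean ± SE, filled where adjusted p was under 0.05. Lox, Loxl1 and Loxl3 lie above 0 in all 6 arms, the Loxl4 points rest mostly on levels below background, and P4ha2 in the Su arm stands lowest, at -0.89.

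No tested prolyl 4-hydroxylase subunit or lysyl hydroxylase was called higher in irradiated lung. P4ha1, the widely expressed catalytic subunit, had levels of 1.18, 1.71 and 2.08 on irradiated arrays, against 1.42, 1.81 and 2.31 on unirradiated arrays (lowest, median and highest). Its averaged difference was small, -0.16 ± 0.05, or 0.895 times the unirradiated level (adjusted p = 0.0167), downward in 5 of 6 arms. In a fit with irradiation and drug arm as additive terms P4ha1 did not pass (limma, adjusted p = 0.0593). With slide added to that fit as a random block it did not pass either (adjusted p = 0.148). The call also ended with quantile normalization (-0.11, adjusted p = 0.0756), and a second P4ha1 probe gave 0.04 ± 0.09 (adjusted p = 0.742). P4ha2, the other catalytic subunit that was well detected, differed by -0.09 ± 0.08 (adjusted p = 0.404), with levels of 2.25, 3.29 and 4.19 on irradiated and 2.96, 3.37 and 3.74 on unirradiated arrays.

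The lysyl hydroxylases Plod1 and Plod2 gave no call in any of the comparisons of groups. Plod1, which modifies lysines within the triple helix, had levels of -2.002, -0.80 and -0.02 on irradiated arrays, against -1.93, -1.09 and -0.14 on unirradiated arrays (lowest, median and highest), and its averaged difference was 0.33 ± 0.17 (adjusted p = 0.146). The arms ran in both directions: the level was lower by 0.56 in IR than in untreated lung, and higher by 1.01 in IR+Su than in Su lung, neither of which passed (adjusted p = 0.346 and 0.122). IR 1 held the lowest irradiated level of Plod1, and without it the IR difference was 0.09 (adjusted p = 0.943). Plod2, which modifies the telopeptide lysines behind the stable cross-links of fibrotic collagen, had levels of -0.17, 0.27 and 0.79 on irradiated and 0.03, 0.37 and 0.65 on unirradiated arrays, with an averaged difference of -0.04 ± 0.10 (adjusted p = 0.774).

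Lox, P4ha1 and P4ha2 were lower in 3 of the 5 drug-treated irradiated groups than in IR lungs. The 5 comparisons that follow share the 2 IR arrays, and only IR+Ly shared a slide with IR. In IR+Su lungs 3 enzymes were lower than in IR lungs (26.5% of all genes called, 15.8% lower), and the same 3 were lower in IR+Ly+Imatinib lungs (19.4% called, 8.34% lower) and in IR+Ly+Su lungs (28.5% called, 12.7% lower). In IR+Imatinib lungs P4ha2 was lower (13.9% called). The test also passed upward there for Loxl4, with 1 of 2 IR+Imatinib arrays and no IR array above background, so that it is not counted as a result. In IR+Ly lungs no enzyme was called (0.887% called, with 3 of 9 enzymes and 25.4% of all genes at an unadjusted p under 0.05). Loxl4 was among these 3 enzymes, with no IR array above background. Macrophage markers were lower in the groups with 3 lower enzymes. Their summed level was 23.8 and 25.4 in IR+Su, 30.6 and 21.6 in IR+Ly+Imatinib and 24.2 and 21.6 in IR+Ly+Su lungs. In IR lungs it was 63.1 and 42.2. In these groups 7, 3 and 7 of the 8 markers were lower than in IR by the same test. Of 6 endothelial markers 3, 3 and 2 were higher than in IR in these groups. Of 6 smooth muscle markers none was higher and 1 lower in IR+Su, 1 was higher in IR+Ly+Imatinib and 3 were higher in IR+Ly+Su lungs. Summed macrophage markers were 23.6 and 35.2 in IR+Imatinib lungs, below both IR arrays, though Lox and P4ha1 were not called there. In IR+Ly lungs they were 27.0 and 43.1. Summed fibroblast markers were 227 and 190 in IR+Su, 119 and 208 in IR+Ly+Imatinib and 188 and 213 in IR+Ly+Su lungs. In IR lungs they were 129 and 210. The part of these cell types in the result was not tested.

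Lox levels were -1.23 and -1.56 in IR+Su lungs, against 1.46 and -0.15 in IR lungs. The groups did not overlap, and nor did they for 12315 of 20409 genes. The 2 IR arrays lay far apart. The difference was -2.05 ± 0.47, or 0.241 times the IR level (limma, adjusted p = 0.00831). Lox was at -1.81 and -0.63 in IR+Ly+Imatinib lungs, a difference from IR of -1.88 ± 0.47 (adjusted p = 0.0172), and at -0.95 and -1.45 in IR+Ly+Su lungs, a difference of -1.86 ± 0.47 (adjusted p = 0.0126). All 3 calls ended without IR 1, at -1.25 for IR+Su (adjusted p = 0.113), -1.07 for IR+Ly+Imatinib (adjusted p = 0.176) and -1.05 for IR+Ly+Su (adjusted p = 0.168), and also without IR+Su 2 (-1.89, adjusted p = 0.0662), IR+Ly+Imatinib 1 (-1.29, adjusted p = 0.139) or IR+Ly+Su 2 (-1.61, adjusted p = 0.0882). IR+Ly lungs, at -0.39 and -0.52, and IR+Imatinib lungs, at -0.91 and 0.14, differed from IR by -1.11 and -1.04, which did not pass (adjusted p = 0.169 and 0.129). In the order of the 12 group means, IR stood first for Lox at 0.66, followed by IR+Imatinib, IR+Ly and untreated at -0.39 to -0.46, and neighbours in the order were separate at 2 of 11 steps.

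P4ha2 levels were 2.74 and 2.25 in IR+Su lungs, against 4.19 and 3.65 in IR lungs. Both IR+Su arrays lay below every other array of the series. The difference was -1.42 ± 0.19, or 0.373 times the IR level (adjusted p = 0.000679), and it passed under all 12 alternatives tried, the omission of each of the 4 arrays included, with values between -1.70 and -1.12. P4ha2 was also lower than in IR by 0.82 ± 0.19 in IR+Ly+Su lungs, at 3.11 and 3.08 (adjusted p = 0.00723), by 0.74 ± 0.19 in IR+Ly+Imatinib lungs, at 3.36 and 3.01 (adjusted p = 0.0173), and by 0.63 ± 0.19 in IR+Imatinib lungs, at 3.26 and 3.32 (adjusted p = 0.0403). Those 3 calls ended without IR 1, at -0.55, -0.46 and -0.36 (adjusted p = 0.0863, 0.156 and 0.375). The IR+Ly+Imatinib call also ended without IR+Ly+Imatinib 2 (-0.56, adjusted p = 0.119), and that of IR+Imatinib without IR+Imatinib 1 (-0.60, adjusted p = 0.137) or IR+Imatinib 2 (-0.66, adjusted p = 0.130).

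P4ha1 was lower in 3 of the same groups. Its levels were 1.43 and 1.18 in IR+Su lungs, against 2.08 and 1.98 in IR lungs, a difference of -0.73 ± 0.11 or 0.604 times the IR level (adjusted p = 0.00144), which passed under all 12 alternatives between -0.85 and -0.55. When every probe was tested, the second P4ha1 probe gave -0.83 ± 0.22 for IR+Su (adjusted p = 0.0154). For IR+Ly+Imatinib and IR+Ly+Su it gave -0.38 and -0.58 from IR, which did not pass (adjusted p = 0.207 and 0.0567). By the brighter probe, P4ha1 stood at 1.64 and 1.55 in IR+Ly+Imatinib lungs (-0.44 ± 0.11 from IR, adjusted p = 0.0192). It stood at 1.70 and 1.56 in IR+Ly+Su lungs (-0.40 ± 0.11, adjusted p = 0.0196). None of these arrays overlapped with IR, and nor did those of 10742 and 12997 of 20409 genes. Both calls ended with quantile normalization (-0.27 and -0.23, adjusted p = 0.107 and 0.143). They ended, too, without IR 1 (-0.39 and -0.35, adjusted p = 0.0940 and 0.107), without either array of IR+Ly+Imatinib (-0.48 and -0.40, adjusted p = 0.0591 and 0.0947) and without either array of IR+Ly+Su (-0.48 and -0.33, adjusted p = 0.0566 and 0.129).

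**Figure D3:**
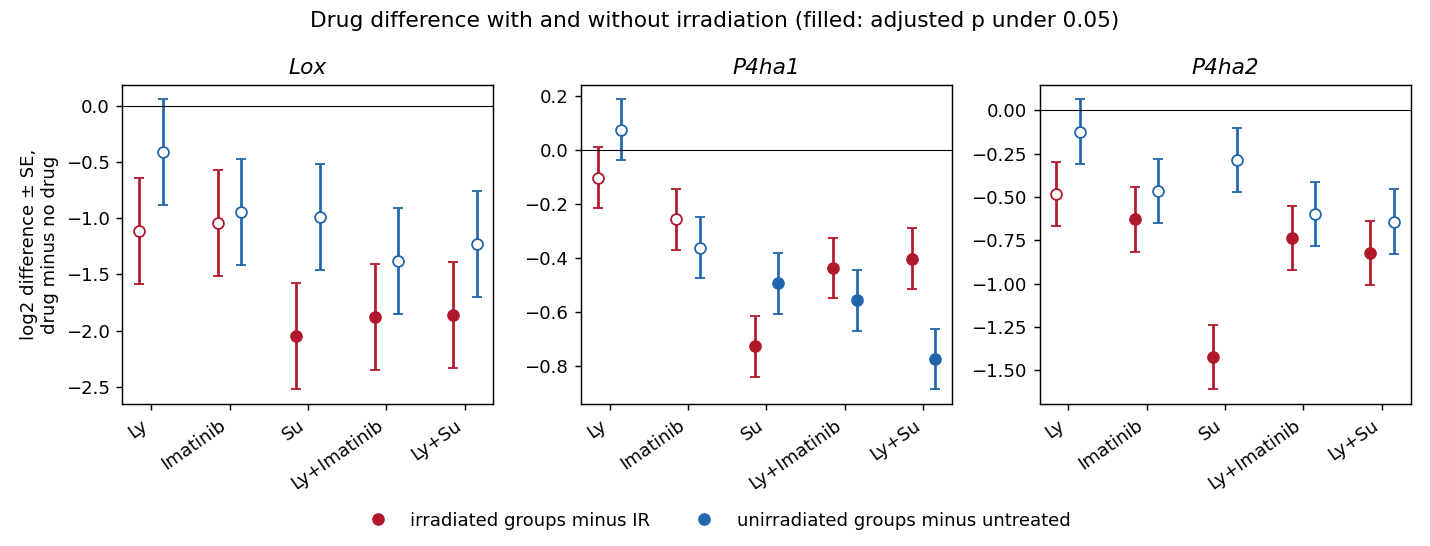
Drug minus no drug (vertical axis, log2 ± SE) for Lox, P4ha1 and P4ha2 in each drug arm (horizontal axis), red for irradiated groups minus IR and blue for unirradiated groups minus untreated, filled where adjusted p was under 0.05. Su, Ly+Imatinib and Ly+Su stand below 0 with filled red points for all 3 genes, and P4ha1 is the only 1 of them with filled blue points.

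The other enzymes showed few differences from IR. For Loxl4 in IR+Imatinib against IR lungs no fold is given, since 1 of 2 IR+Imatinib arrays and no IR array were above background. The means were -4.94 and -6.26, and the test passed upward (adjusted p = 0.0429). That call ended without IR 1 (adjusted p = 0.201), IR 2 (adjusted p = 0.0556) or IR+Imatinib 2 (adjusted p = 0.299), and with background taken from the negative control spots (adjusted p = 0.0863). Loxl1 did not pass in any drug group against IR, with differences from -0.22 in IR+Su to 0.51 in IR+Ly+Imatinib. Loxl3 was at -3.06 and -3.09 in IR+Su and at -3.04 and -3.09 in IR+Ly+Su lungs, against -2.22 and -2.71 in IR lungs; these differences of -0.61 and -0.60 did not pass (adjusted p = 0.0592 and 0.0600).

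Drug without irradiation went with lower P4ha1 by its brighter probe, and with no other call among the 9 enzymes. The second P4ha1 probe was lower too but did not pass when every probe was tested. It gave -0.62 in Ly+Su, -0.35 in Ly+Imatinib and -0.29 in Su against untreated lungs (limma, adjusted p = 0.232, 0.467 and 0.518). P4ha1 levels were 1.47 and 1.42 in Ly+Su lungs, against 2.13 and 2.31 in untreated lungs, a difference of -0.77 ± 0.11 or 0.585 times the untreated level (adjusted p = 0.00618; 0.735% of all genes called). The Ly+Imatinib lungs, at 1.62 and 1.71, differed from untreated by -0.56 ± 0.11 (adjusted p = 0.0215; 2.58% called), and the Su lungs, at 1.65 and 1.81, by -0.49 ± 0.11 (adjusted p = 0.0343; 2.7% called). In these 3 comparisons the P4ha1 arrays did not overlap, and nor did those of 8921, 10913 and 12322 of 20409 genes. The Ly+Su call held without each of its 4 arrays. The Ly+Imatinib call ended without untreated 2 (-0.47, adjusted p = 0.132), Ly+Imatinib 1 (-0.51, adjusted p = 0.242) or Ly+Imatinib 2 (-0.60, adjusted p = 0.0622), and the Su call ended without each of its 4 arrays, between -0.58 and -0.41 (adjusted p = 0.0515 to 0.278). Imatinib alone gave P4ha1 at 1.91 and 1.81, 0.36 below untreated (adjusted p = 0.241; 0.358% called), and Ly alone, within 1 slide, gave 2.29 and 2.31 (0.07 ± 0.11, adjusted p = 0.987; 0.0049% called).

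Within the Su arm irradiation went with lower P4ha2, and with lower P4ha1 by its brighter probe. The second P4ha1 probe gave -0.27 ± 0.22, which did not pass when every probe was tested (limma, adjusted p = 0.445). P4ha2 was at 2.74 and 2.25 in IR+Su lungs, against 3.40 and 3.38 in Su lungs, a difference of -0.89 ± 0.19 (adjusted p = 0.0113; 10.8% of all genes called). P4ha1 was at 1.43 and 1.18 in IR+Su lungs, against 1.65 and 1.81 in Su lungs, and differed by -0.42 ± 0.11 (adjusted p = 0.0301). Both calls ended without Su 1 (-0.88 for P4ha2, adjusted p = 0.0757, and -0.50 for P4ha1, adjusted p = 0.0838), Su 2 (-0.90 and -0.35, adjusted p = 0.0852 and 0.215) or IR+Su 2 (-0.65 and -0.30, adjusted p = 0.148 and 0.281). In the Ly, Ly+Imatinib and Ly+Su arms no enzyme passed between irradiated and unirradiated lung, where 0.0343%, 3.58% and 3.4% of all genes did. At an unadjusted p under 0.05 the count of enzymes was 4, 3 and 1 of 9. The share of all genes was 5.86%, 20.1% and 18%. Loxl4 was among these enzymes in each arm, and in the Ly+Su arm it was the only 1. No Ly+Imatinib or Ly+Su array was above background for Loxl4.

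Whether irradiation differed between drug arms was tested directly. Over the 5 differences between a drug arm and the arm without drug, the F test called none of the 9 enzymes (1.07% of all genes called), with the smallest adjusted p at 0.146 for P4ha2 and 0.200 for P4ha1; 2 of 9 had an unadjusted p under 0.05, as did 18.6% of all genes. As a single difference, that of P4ha2 in the Su arm was 1.14 lower than without drug (-1.14 ± 0.26, adjusted p = 0.0248). P4ha2 was the only 1 of 9 enzymes called there, near the 10.9% of all genes called.

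The combinations did not differ from their single agents in irradiated lung by this test, with 0 of 9 enzymes called in each of the 4 comparisons. IR+Ly+Imatinib was set against IR+Ly (3.43% of all genes called; 1 enzyme and 17.3% of genes at an unadjusted p under 0.05) and IR+Imatinib (1.46% called; 0 enzymes and 9.74% of genes). IR+Ly+Su was set against IR+Ly (3.38% called; 3 enzymes and 17% of genes) and IR+Su (3.31% called; 2 enzymes and 9.06% of genes). For Lox, IR+Ly+Su minus IR+Su was 0.19, with a 95% interval of -0.82 to 1.21, and IR+Ly+Imatinib minus IR+Imatinib was -0.84, with an interval of -1.85 to 0.18. P4ha2 was 0.60 higher in IR+Ly+Su than in IR+Su lungs, with an interval of 0.20 to 1.00 before adjustment (adjusted p = 0.131). These intervals are wide, and a miss of the threshold does not show that the treatments act alike.

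The substrates of the cross-linking enzymes were higher in irradiated lung as well. Of 11 collagen and elastin genes 10 were tested, and 10 of 10 were higher in the averaged comparison, with a median of 0.79. Col1a1, the main chain of fibrillar collagen I, was higher by 0.97 ± 0.16 (adjusted p = 0.000502), the elastin gene Eln by 1.41 ± 0.28 (adjusted p = 0.00206), and Col5a2, a chain of the fibrillar collagen V, by 1.12 ± 0.20 (adjusted p = 0.000905). Of 6 cartilage markers 4 were tested and 1 was called, with a median of 0.17; it was Col2a1, a cartilage collagen on both lists, which was higher by 2.32 ± 0.19. The summed level of the cartilage markers, relative to the 75th percentile, was 0.390 to 2.23 on irradiated arrays against 0.220 to 0.321 on unirradiated arrays, and 3 or 4 of the 6 were above background on irradiated arrays, against 2 to 4 on unirradiated arrays. Their part in the result was not tested. Summed macrophage markers (8 of 8 above background on every array) spanned 21.6 to 63.1 on irradiated and 18.1 to 40.1 on unirradiated arrays, and summed fibroblast markers (7 or 8 of 8 above background on irradiated, 7 of 8 on unirradiated arrays) spanned 119 to 258 and 204 to 301; their part was not tested either.

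**Figure D4:**
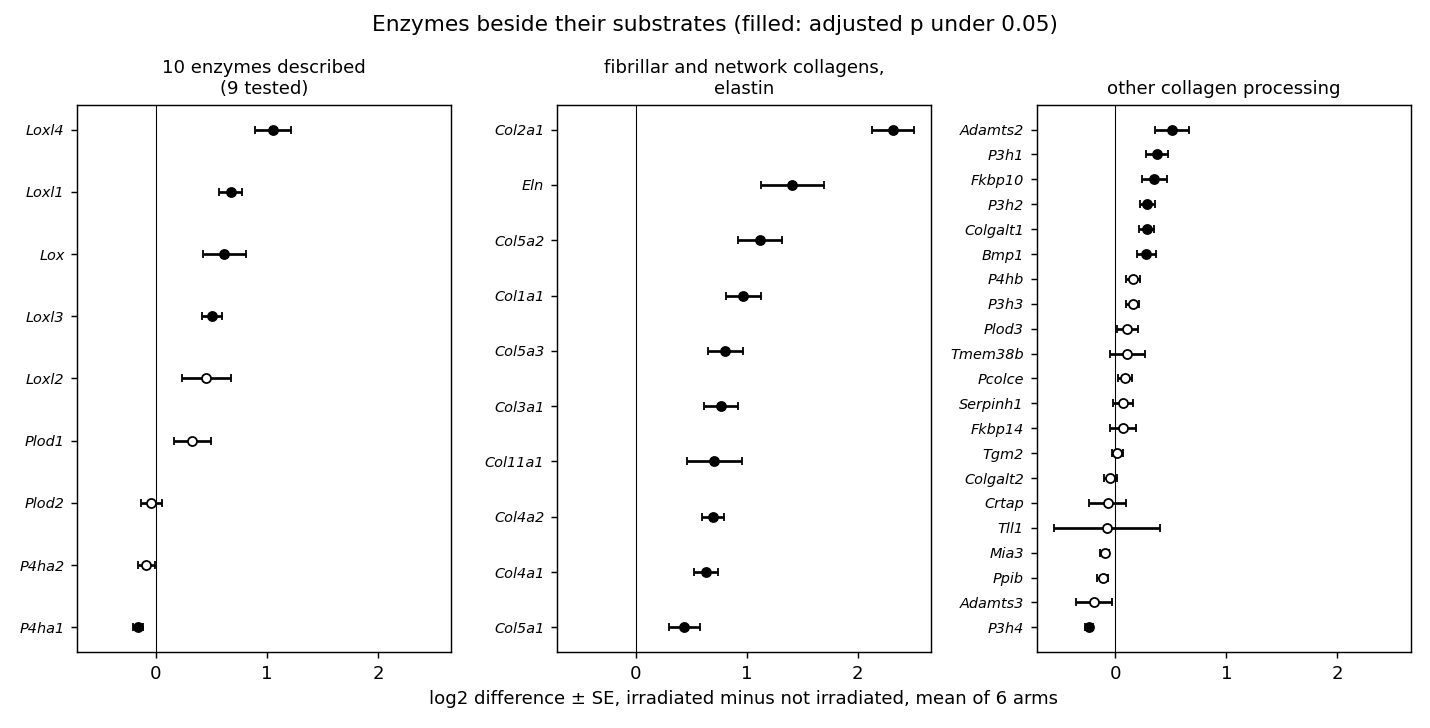
Averaged irradiation difference (horizontal axis, log2 ± SE over 6 arms) for the enzymes described, for collagens and elastin, and for other genes of collagen processing (vertical axis), filled where adjusted p was under 0.05. All 10 substrates lie to the right of 0, while the prolyl 4-hydroxylase subunits P4ha1 and P4ha2 lie at -0.16 and -0.09.

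Of 24 other genes of collagen processing 21 were tested, 6 were higher and 1 was lower with irradiation averaged over arms, and the median was 0.09. That share of calls lies near the 32.9% of all genes. Adamts2, which removes the amino propeptide of procollagen, was higher by 0.51 ± 0.15 (adjusted p = 0.0195), the prolyl 3-hydroxylase P3h1 by 0.38 ± 0.10 (adjusted p = 0.0114) and the collagen chaperone Fkbp10 by 0.35 ± 0.11 (adjusted p = 0.0283), while P3h4 was lower by 0.24 ± 0.04 (adjusted p = 0.000366). Among 22 genes of fibre assembly 14 were higher and 2 lower, with the matricellular gene Tnc higher by 1.88 and the latent TGF-beta binding protein Ltbp4 lower by 0.32. Of 16 TGF-beta response genes 10 were higher and none was lower; Inhba, which encodes an activin subunit, was higher by 1.17.

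In IR+Su against IR lungs, 9 of the 21 collagen processing genes were lower and 1 was higher, with a median of -0.42 against -0.07 over all genes. Fkbp14, a chaperone of the endoplasmic reticulum, was at -1.51 ± 0.29 (adjusted p = 0.00328), Adamts2 at -1.38 ± 0.37 (adjusted p = 0.0169) and the collagen chaperone Serpinh1 at -0.93 ± 0.22 (adjusted p = 0.00919), and Colgalt2, a collagen galactosyltransferase, was higher by 0.65 ± 0.14. Of 10 substrates 4 were lower, Eln by 2.10 and Col3a1 by 1.46 among them, and Col11a1 was higher by 1.90. Of 15 genes of the hypoxia list, chosen since oxygen sensing is known to act on prolyl hydroxylase genes, 4 were lower and none was higher in IR+Su than in IR lungs, 4 were lower and none higher in IR+Ly+Imatinib lungs, and 6 were lower in IR+Ly+Su lungs. Of all genes 26.5%, 19.4% and 28.5% were called in these comparisons, and 15.8%, 8.34% and 12.7% were called lower. Hk2, a glycolytic kinase, was at -0.99 in IR+Su, -0.89 in IR+Ly+Imatinib and -0.96 in IR+Ly+Su lungs relative to IR. Adm, Hk2, Bnip3 and Aldoa of this list were also lower in IR+Imatinib than in IR lungs, with Hk2 at -0.83. Of all genes 13.9% were called there. In that comparison P4ha2 was called lower, and Lox and P4ha1 were not called. In the averaged irradiation comparison 2 hypoxia genes were higher and 3 lower, where 32.9% of all genes were called.

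Correlations between the enzymes are Pearson's r over 24 arrays that share 12 groups, 6 slides and a common scaling, and they are given as a description. P4ha1 and P4ha2 correlated at 0.83, and at 0.56 after the group means were removed. Loxl1 and Loxl3 correlated at 0.72, and at 0.68 within groups, and Lox and P4ha2 at 0.68, and at 0.40 within groups. Loxl1 and P4ha1 stood at -0.21, and turned to 0.59 within groups.

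The genes most like each enzyme were picked for the highest r over the 24 arrays. Values within subsets of these arrays are therefore no independent check. For P4ha1 they were the heat shock genes Hsph1, Hspb1 and Hsp90aa1, with r of 0.93, 0.92 and 0.91. Within the 12 irradiated and within the 12 unirradiated arrays r was between 0.89 and 0.96. For P4ha2 they were Manf, a secreted protein of the endoplasmic reticulum stress response, Smpd1, a sphingomyelinase, and Dnajb11, a cochaperone of the endoplasmic reticulum, with r of 0.93, 0.92 and 0.92. For Loxl3 they were Lhfpl2 and the collagen chains Col5a2 and Col4a1, at 0.90, 0.89 and 0.89, with lower values of 0.48 to 0.64 among unirradiated arrays. For Loxl1 they were Ccn5, Zfp979 and Bnip2, all at 0.89 over 24 arrays and at 0.33 to 0.53 among unirradiated arrays, and for Lox Slc5a3, Tgoln1 and Jag2 at 0.92, 0.90 and 0.89, which fell to between 0.82 and 0.86 without the array IR 1. Plod1 was most like Bcam, Ptdss2 and Gys1 (0.95, 0.95 and 0.94), Loxl2 like Sfrp1, Shisa4 and Azin1 (0.81, 0.80 and 0.79), and Loxl4 like Gas7, Lama1 and Adamtsl2 (0.87, 0.84 and 0.83). For Plod2 the highest were Zc3h15, Smap1 and 1700018F24Rik, at 0.74, 0.74 and 0.65.

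**Figure D5:**
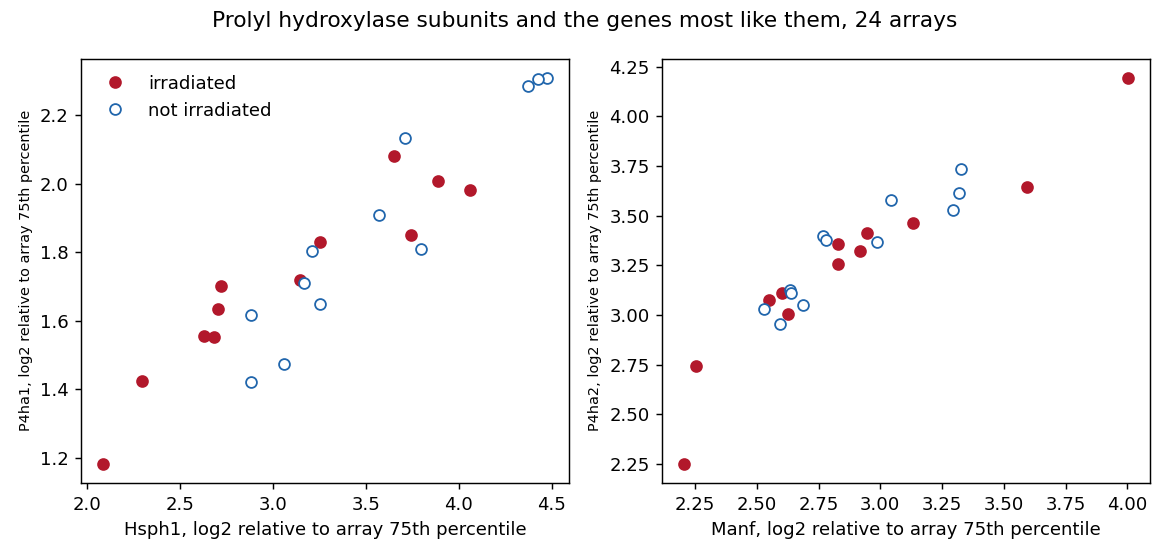
Level of P4ha1 against Hsph1 and of P4ha2 against Manf (both axes, log2 signal relative to the array's 75th percentile), 1 point per array, irradiated filled and unirradiated open. In both panels the 24 arrays lie along a rising line, with r of 0.93 in each. Hsph1 and Manf were picked for the highest r over these same arrays.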

How the data were processed

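RNA of 24 mouse lungs was labelled with Cy3 and hybridised to single-colour Agilent arrays, 2 biological replicates in each of 12 groups taken from the sample titles. The deposited values are the processed signal intensity of each probe, made with Feature Extraction 9.1.3.1, per the file headers; the authors' series value table holds the same intensity up to a constant (ratio 0.99502 to 1.00498, log2 taken here). Control spots and 619 of 41174 probes flagged as outliers were left out. Log2 intensity minus the 75th percentile of each array was used, and the probe with the highest mean stood for a gene. Testing used the limma package (3.58.1; R 4.3.3; 1 mean a group, 12 residual degrees of freedom), with Benjamini-Hochberg adjustment over 20409 genes; the procedure was tested on simulated data. The number of arrays limits the precision. Replicate numbers did not pair the samples: over 66 pairs of groups the median correlation of deviations was 0.036. The enzymes and lists were chosen with earlier results of these data known. Named are all enzymes, list genes past the threshold (at most 4 highest and 4 lowest a list and comparison), and the 3 genes most correlated with each enzyme. Alternatives were quantile normalization, normexp background correction, other filters, every probe, the authors' values, the replicate number or slide as a block, and omission of each array.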

Additional observations from a re-analysis of the deposited data

Results flagged for a closer look

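The irradiation difference of P4ha2 was lower with Su than without drug by a test of the difference itself, at -1.14 ± 0.26 on the log2 scale (SE; limma, adjusted p = 0.0248; 10.9% of all genes called). It rested on P4ha2 levels of 2.74 and 2.25 in IR+Su against 3.40 and 3.38 in Su lungs, and of 4.19 and 3.65 in IR against 3.74 and 3.62 in untreated lungs. The call ended without untreated 2 (-1.08, adjusted p = 0.0841), Su 1 (-1.13, adjusted p = 0.0803), Su 2 (-1.15, adjusted p = 0.0816), IR 1 (-0.86, adjusted p = 0.0831) or IR+Su 2 (-0.89, adjusted p = 0.0943), and it held with quantile normalization (-0.84, adjusted p = 0.0470).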

How the results depend on the processing

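Of the 24 single-enzyme calls, the replicate block and the authors' value table each kept 24; with the block the averaged irradiation comparison again called 5 enzymes. These counts include Loxl4. Lower P4ha1 and P4ha2 in IR+Su than in IR lungs passed under all 12 alternatives. With normexp, 4 calls held, 17 were lost and 3 turned, Loxl3 to -0.59 in IR against untreated and -0.030 averaged, and Loxl4 to -0.32 averaged; its counts were 0 in IR against untreated, IR+Imatinib against Imatinib, IR+Su against Su, IR+Imatinib, IR+Ly+Imatinib and IR+Ly+Su against IR, and Su, Ly+Imatinib and Ly+Su against untreated, 1 averaged and 5 in IR+Ly+Imatinib against Ly+Imatinib. Its fitted background mean was as low as -981 on 1 array and far below 0 on 5 arrays, so background was also taken from negative control spots, an alternative chosen after seeing the data: 19 calls held, with 0 in IR against untreated, 1 in IR+Imatinib against IR and 0 in Su against untreated. Without a filter the counts were 0 in IR against untreated, 1 in IR+Su against Su, 0 in IR+Imatinib against IR and 0 in Su against untreated; with genes above background on all 24 arrays, 1 in IR+Imatinib against IR. Quantile normalization gave 3 averaged, 0 in IR+Imatinib against IR and 1 in IR+Ly+Imatinib against IR. Slide as a random block gave 3 averaged and could not be fitted beside 12 group means. It was fitted beside irradiation and drug arm as additive terms, where P4ha1 did not pass even without the block (limma, adjusted p = 0.0593). Omission of 1 array each gave 0 to 4 enzymes in IR against untreated, 0 to 3 in IR+Imatinib against Imatinib, 0 to 2 in IR+Su against Su, 0 to 1 in IR+Ly+Imatinib against Ly+Imatinib and 4 to 6 averaged. Against IR it gave 0 to 4 in IR+Ly, 0 to 3 in IR+Imatinib, 2 to 5 in IR+Su, 0 to 4 in IR+Ly+Imatinib and 0 to 5 in IR+Ly+Su; against untreated 0 in Su and 0 to 1 in Ly+Imatinib; and 0 to 1 in the F test of the difference between arms. The cause was not tested. Loxl4 and P4ha3 are limited by signal near background.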
